A study of Mus musculus with 15 samples.

Results

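The genes described here are 10 genes of cytotoxic lymphocytes, *Gzma*, *Gzmb*, *Prf1*, *Nkg7*, *Klrk1*, *Ncr1*, *Klrb1c*, *Klrd1*, *Il2rb* and *Eomes*, looked up by symbol in the deposited expression table. All 10 were among its 18279 genes. Natural killer (NK) cells and CD8 T cells kill target cells by releasing granules, in which perforin opens the target membrane and granzymes, which are proteases, trigger cell death. NK cells decide on release by weighing signals from activating and inhibitory receptors on their surface, while T cells use the T cell receptor with its CD3 chains. Many of the genes are shared between both cell types, so that in bulk tumor RNA they mark cytotoxic lymphocytes as a class, and *Ncr1*, which codes for the activating receptor NKp46, is the one most restricted to NK cells and related innate lymphocytes.

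RNA was sequenced in bulk from 15 tumors of Renca, a mouse renal carcinoma line of the BALB/c strain, each grown under the skin of a female BALB/c mouse that was 4 to 6 weeks old, per the labels. Tumors 1 to 5 came from control cells, tumors 6 to 10 from *Pbrm1* knockout clone 4 and tumors 11 to 15 from *Pbrm1* knockout clone 18, and both clones together are called knockout. *Pbrm1* codes for a subunit of the PBAF chromatin remodeling complex. The comparison asks whether loss of *Pbrm1* in the tumor cells went with another immune composition of the tumor. All cells were injected in Matrigel into mice with an intact immune system. The clones were made by transient expression of Cas9 and single cell sorting, so that each group came from 1 cell line and clone and genotype cannot be told apart within a group. The sample labels describe the control tumors as tumors of parental cells, whereas the study describes control knockout cells. The labels also state that mice either had no treatment or were given a PD-1 antibody, without saying which applied to the mice of these 15 tumors. Tumors are the replicates, and no label says that they came from separate experiments, so p values measure the spread between these tumors.

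Each tumor had between 32924414 and 49099168 reads on genes, with a median of 40860659. Mean *Pbrm1* in the knockout tumors was 31.0% of that in control tumors, without overlap between the groups. Renal epithelial genes (*Pax8*, *Pax2*, *Krt8*, *Krt18*, *Epcam* and *Cdh1*) summed to between 76900 and 114500 normalized counts per tumor, whereas the 10 cytotoxic genes together summed to between 92.9 and 929.6. Of the 10, only 6 averaged 10 or more normalized counts, and the reads on single genes ran from 0 to 267 per tumor, so that the values of the low genes carry a large counting error. Normalized counts are reads on a gene divided by a size factor per tumor. Counting error is the only error that the number of reads covers, since the reads carried no molecular identifiers.

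The genes lie on 7 chromosomes of GRCm38. *Klrb1c* (chr6:128778485-128789215), *Klrd1* (chr6:129591782-129598775) and *Klrk1* (chr6:129610323-129623864) belong to the NK gene complex on chromosome 6. *Nkg7* (chr7:43437073-43438249) and *Ncr1* (chr7:4337724-4345164) are on chromosome 7. The others are *Eomes* (chr9:118478212-118486132), *Prf1* (chr10:61297833-61304680), *Gzma* (chr13:113093825-113100981), *Gzmb* (chr14:56258838-56262260) and *Il2rb* (chr15:78479256-78495271). All 10 are annotated as protein coding, and values count reads over the whole gene. *Klrb1c* overlaps *Gm44511* on the same strand and *Eomes* overlaps *Gm33460* on the other strand, so that reads of those partners may be included in their values.

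Promoters of 4 of these genes are shown because they are the genes with the lowest adjusted p in clone 18, as given further on. Each stretch is from RefSeq on GRCm38.p6, written 5′ to 3′ on the strand of the gene, and stops before the annotated gene. Capitals mark the letters TGTGGT, or ACCACA where they are on the opposite strand, which are the core that RUNX factors can bind. *Klrk1* is on the minus strand at chr6:129623865-129624114, *Nkg7* on the plus strand at chr7:43436888-43437072, *Prf1* on the plus strand at chr10:61297586-61297832 and *Gzmb* on the minus strand at chr14:56262335-56262584.
Klrk1: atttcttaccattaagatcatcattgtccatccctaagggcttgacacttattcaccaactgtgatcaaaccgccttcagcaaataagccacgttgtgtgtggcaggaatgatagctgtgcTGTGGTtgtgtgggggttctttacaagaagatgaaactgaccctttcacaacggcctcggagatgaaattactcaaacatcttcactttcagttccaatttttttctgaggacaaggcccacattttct
Nkg7: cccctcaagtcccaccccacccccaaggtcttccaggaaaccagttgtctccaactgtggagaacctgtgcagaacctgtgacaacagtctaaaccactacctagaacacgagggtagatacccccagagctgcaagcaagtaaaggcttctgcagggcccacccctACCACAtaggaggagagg
Prf1: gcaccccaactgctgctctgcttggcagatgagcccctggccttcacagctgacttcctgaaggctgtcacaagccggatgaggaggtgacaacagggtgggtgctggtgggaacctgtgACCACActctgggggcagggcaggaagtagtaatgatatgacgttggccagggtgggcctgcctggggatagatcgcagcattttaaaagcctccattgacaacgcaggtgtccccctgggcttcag
Gzmb: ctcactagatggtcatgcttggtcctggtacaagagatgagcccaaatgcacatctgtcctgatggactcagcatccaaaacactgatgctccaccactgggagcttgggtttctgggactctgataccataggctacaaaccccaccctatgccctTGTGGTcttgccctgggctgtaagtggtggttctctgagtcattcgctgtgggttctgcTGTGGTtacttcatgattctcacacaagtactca
The promoter table held 9 windows of 250 bases before the start for 8 of the 10 genes, with *Klrd1* and *Il2rb* not matched and with a pair of overlapping windows for *Ncr1*. TGTGGT was present on either strand in 8 of the 9 windows, the exception being *Eomes*, and in 14.0% of 32536 windows of all genes. *Gzmb* held the letters at 2 places, 93 and 34 bases before the start. AGGTGTGA, which T-box factors such as the product of *Eomes* can bind, was present in 1 window, that of *Nkg7*, and in 1.13% of all windows. AGGAAGT, which ETS factors can bind, was in the *Prf1* window only, against 7.70% of all windows, and TTCNNNGAA, which STAT factors can bind, was in the *Nkg7* window only, against 7.04%. The letters were chosen after the values were seen and are a description of the windows. The median GC content was 46.4% in the windows of the cytotoxic genes and 52.4% over all windows.

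All 10 genes had a lower mean on the log2 scale in knockout than in control tumors, and 1 of them, *Nkg7*, passed the test. Across all 18250 genes tested, 22.1% passed in either direction and 12.9% passed as lower in knockout, so that 1 of 10 is near the background. The median log2 difference over the 10 genes was -1.21, while it was -0.02 over all genes, of which 52.9% were lower. The fold changes are on the scale of log2(normalized count + 1), tested with limma and adjusted over all genes, and this scale understates the change of low genes. No gene had all 10 knockout tumors below each control tumor, which 4.87% of all genes had. In bulk RNA, fewer cytotoxic cells and less RNA per cell cannot be told apart.

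**Figure D1:**
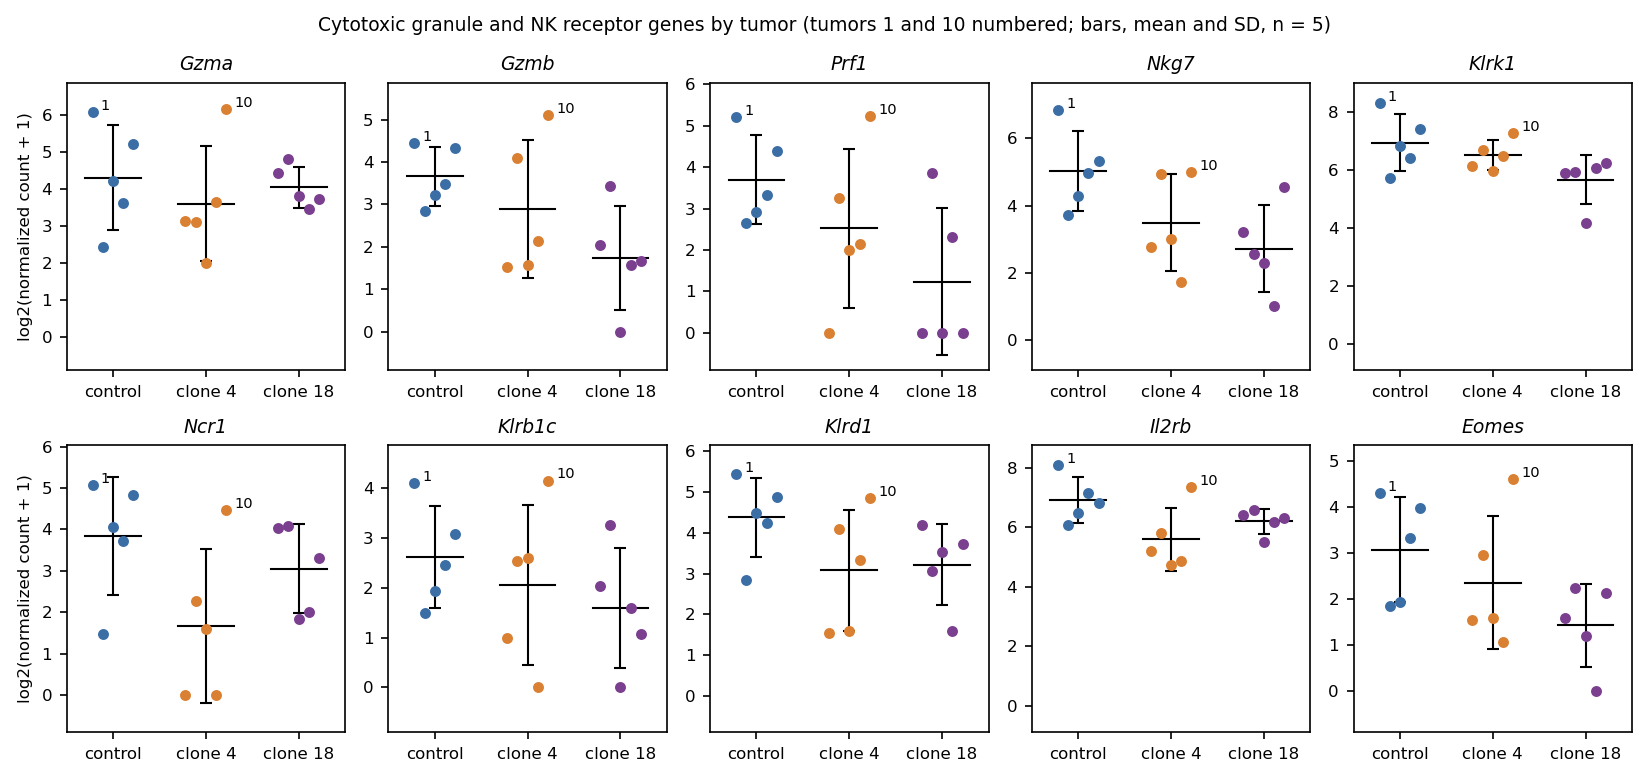
Expression of the 10 cytotoxic granule and NK receptor genes in each tumor, as log2(normalized count + 1). Each point is 1 tumor, lines and bars are the mean and SD of 5 tumors, and tumors 1 and 10 are numbered. Tumor 1 is the highest of all tumors in 5 panels and tumor 10 in the other 5.

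*Nkg7* codes for a membrane protein of cytotoxic granules that takes part in their release. Normalized counts of *Nkg7* were 114.9, 12.3, 18.5, 30.3 and 39.1 in control tumors 1 to 5, 5.8, 29.6, 7.0, 2.3 and 31.2 in clone 4 tumors 6 to 10, and 8.2, 4.9, 3.9, 1.0 and 22.4 in clone 18 tumors 11 to 15. Tumor 1 was far above the rest, 7 of 10 knockout tumors lay under the lowest control tumor, and tumors 7, 10 and 15 were inside the control range. Means with SD over 5 tumors were 43.0 ± 41.5 in the control group, 15.2 ± 14.0 in clone 4 and 8.08 ± 8.41 in clone 18. Knockout tumors averaged 27.0% of control, the lowest share of the 10 genes. *Nkg7* fell by 1.93 on the log2 scale (standard error 0.64, 95% confidence interval -3.27 to -0.59, limma adjusted p = 0.0377). The call held in 5 of the 15 fits that left out 1 tumor each, with limma adjusted p from 0.0188 to 0.136 over these fits, the highest being without control tumor 1. Under the other settings it was lost without the limma trend (adjusted p = 0.0576), in both two-sample tests, and without tumors 1 and 10 (adjusted p = 0.0688), the last a setting chosen after seeing the data.

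The granule proteins proper gave values with wide intervals. *Prf1*, which codes for perforin, had normalized counts of 36.0, 5.3, 6.5, 9.0 and 20.1 in the control tumors, 0, 8.6, 3.0, 3.4 and 36.8 in clone 4, and 0, 13.5, 0, 4.0 and 0 in clone 18. It was at 0 in 4 tumors, all of them knockout, yet the highest value of all came from clone 4 tumor 10. *Gzmb*, which codes for the granzyme that activates caspases in target cells, had normalized counts of 20.9, 6.2, 8.3, 10.1 and 19.0 in control tumors, 1.9, 16.2, 2.0, 3.4 and 33.4 in clone 4, and 3.1, 9.8, 0, 2.0 and 2.2 in clone 18. For both genes 7 of 10 knockout tumors lay under the lowest control tumor, while tumor 10 exceeded the highest. The log2 difference was -1.82 for *Prf1* (standard error 0.81, adjusted p = 0.123) and -1.34 for *Gzmb* (standard error 0.64, adjusted p = 0.152), neither past the threshold. Both genes are also in the immunomodulatory signature that the study used, which was chosen from work on other tumors.

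*Gzma* differed least between the groups, though the difference from the other granule genes was not tested. This gene codes for granzyme A, a tryptase that cleaves targets other than caspases. Its normalized counts were 66.1, 4.4, 17.6, 11.2 and 35.9 in control tumors, 7.7, 7.6, 3.0, 11.4 and 70.2 in clone 4, and 20.4, 27.1, 13.1, 10.0 and 12.3 in clone 18. Only 1 knockout tumor was below each control tumor, and the groups overlapped almost fully. The log2 difference of *Gzma* was -0.48 (95% confidence interval -1.74 to 0.77, adjusted p = 0.624), the smallest of the 10, and it was -0.04 without control tumor 1. An interval of this width also holds a decrease like that of *Gzmb*.

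*Klrk1* codes for NKG2D, an activating receptor of NK cells and CD8 T cells for ligands that stressed cells show. Normalized counts of *Klrk1* were 309.9, 51.1, 112.2, 84.0 and 169.2 in control tumors, 68.5, 102.2, 60.7, 87.6 and 152.6 in clone 4, and 58.2, 60.3, 17.0, 66.2 and 75.0 in clone 18. The lowest control tumor, tumor 2, was below 9 of the 10 knockout tumors, whereas 9 of the 10 were below the control median. Over both clones the log2 difference of *Klrk1* was -0.85 with a standard error of 0.42, which did not pass (adjusted p = 0.164).

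*Ncr1* had normalized counts of 32.5, 1.8, 15.8, 12.3 and 27.5 in control tumors, 0, 3.8, 2.0, 0 and 21.2 in clone 4, and 15.3, 16.0, 2.6, 3.0 and 9.0 in clone 18. Apart from tumor 10, the clone 4 tumors were at or near 0, while clone 18 tumors 11 and 12 were level with the control median. The log2 difference of *Ncr1* was -1.48 (standard error 0.76, adjusted p = 0.183). *Klrd1*, which codes for CD94, the partner chain of the NKG2 receptors, ranged from 6.2 to 42.9 in control tumors and from 1.9 to 27.8 in knockout tumors, with 9 of 10 below the control median (log2 difference -1.23, standard error 0.57, adjusted p = 0.133). *Klrb1c*, which codes for the receptor known as NK1.1 in some strains, had 0 to 15 reads per tumor and did not pass in limma, at -0.79 on the log2 scale (standard error 0.64, adjusted p = 0.422). The NK1.1 antibody does not recognise cells of BALB/c mice, and their reads were aligned here to a reference of another strain, and the part of such strain differences in the level of this gene was not tested.

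*Il2rb* codes for the chain that the receptors for interleukin-2 and interleukin-15 share, through which NK cells are kept alive. Its normalized counts were 271.6, 66.9, 89.0, 141.2 and 111.0 in control tumors, 35.7, 55.4, 25.9, 28.4 and 163.8 in clone 4, and 83.7, 96.0, 44.5, 72.2 and 78.4 in clone 18. In clone 4, 4 tumors were below each control tumor and tumor 10 was inside the upper part of the control range. Over both clones *Il2rb* missed the threshold, with a log2 difference of -1.02 (standard error 0.40, 95% confidence interval -1.86 to -0.19, adjusted p = 0.0736). *Eomes*, a T-box transcription factor of NK cells and memory CD8 T cells, ranged from 2.6 to 18.6 in control tumors and from 0 to 23.4 in knockout tumors, 6 of which were below each control tumor. With a log2 difference of -1.18 (standard error 0.61), *Eomes* did not pass (adjusted p = 0.184).

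**Figure D2:**
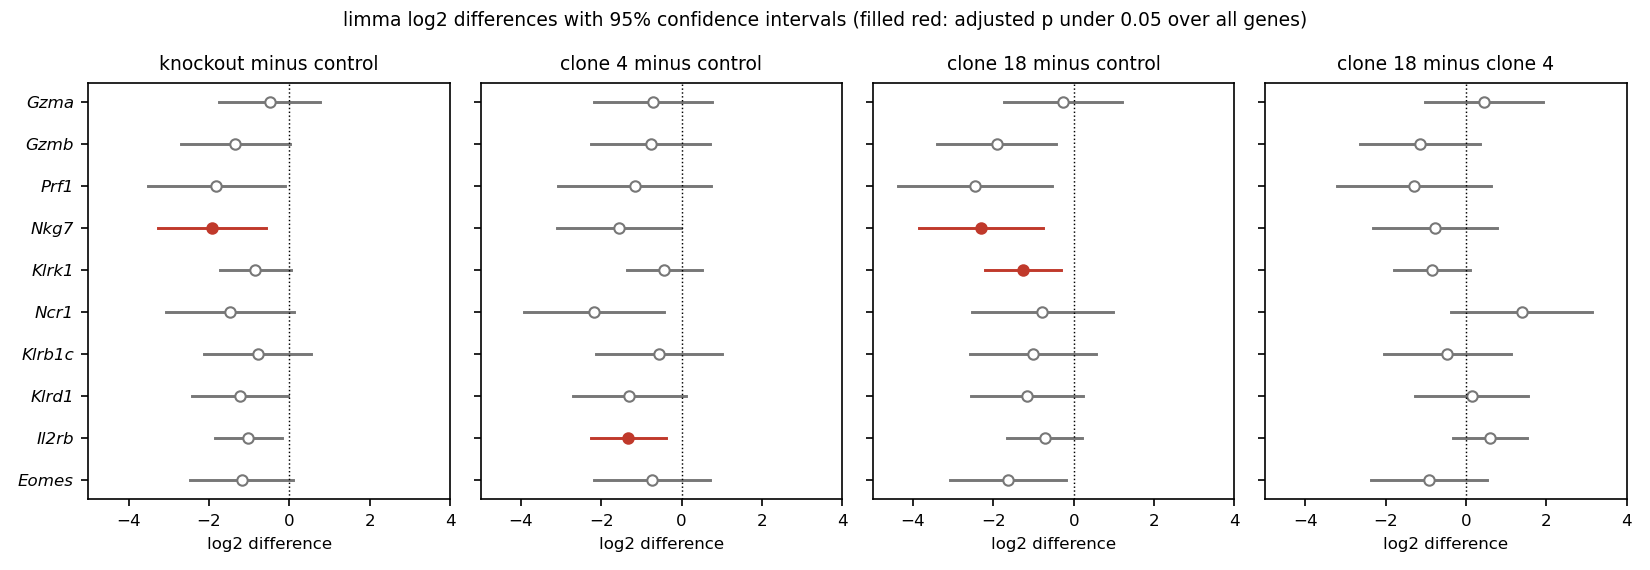
Differences of the 10 genes on the log2(normalized count + 1) scale for knockout against control, for each clone against control, and for clone 18 against clone 4. Points are limma estimates, lines 95% confidence intervals, and filled red points passed the threshold over all genes. Every point of the first 3 panels is below 0, while 6 of 10 are below 0 in the last.

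Each clone was also set against the control tumors alone, which both comparisons share. In clone 4, *Il2rb* was the one gene of 10 that passed, where 16.8% of all genes did, and it fell by 1.32 on the log2 scale (standard error 0.44, adjusted p = 0.0488 from limma). In clone 18, *Nkg7* and *Klrk1* passed, 2 of 10 where 24.7% of all genes did. *Nkg7* fell by 2.31 (standard error 0.73, adjusted p = 0.0284) and *Klrk1* fell by 1.26 (standard error 0.45, adjusted p = 0.0477). *Prf1* and *Gzmb* had log2 differences of -2.46 (adjusted p = 0.0563) and -1.92 (adjusted p = 0.0566) in clone 18, which missed the threshold. The call of *Il2rb* was lost with edgeR on whole reads, with pseudocounts of 0.1 and 5, with scaling to the upper quartile and with limma without trend, and the last 2 settings also ended that of *Klrk1*. When 1 tumor was left out, *Il2rb* held in 3 of 15 fits in clone 4, and *Nkg7* in 10 and *Klrk1* in 4 of 15 fits in clone 18. Without tumors 1 and 10, no gene passed in clone 18, with 5 at an unadjusted p under 0.05 in limma, and *Il2rb* and *Ncr1* passed in clone 4.

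The clones were compared directly with each other. None of the 10 genes passed with limma, against 4.62% of all genes, and none had an unadjusted p under 0.05 (0 with edgeR and 1 with DESeq2, also 0 after adjustment in both). The widest gap was that of *Ncr1*, with clone 18 above clone 4 by 1.39 in log2 (standard error 0.83, 95% confidence interval -0.36 to 3.14). *Prf1* had the largest gap the other way, -1.29 (95% confidence interval -3.20 to 0.62). Intervals of this width do not show that the clones were alike.

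Tumors 1 and 10 were the highest of the 15, each in 5 of these genes. Control tumor 1 was among the 2 highest of the 15 tumors for 10 of the 10 genes, and clone 4 tumor 10 was among the 3 highest for all 10, with control tumor 5 above it in *Nkg7*, *Klrk1*, *Ncr1* and *Klrd1*. The summed normalized counts of the 10 genes were 929.6 in tumor 1, 577.1 in tumor 10 and 472.5 in tumor 5, and the lowest sum, 92.9, was that of clone 18 tumor 13. Of the 150 values of these genes, 10 were 0, spread over 6 knockout tumors and 5 genes, with 0 of them in a control tumor. Detection also differed over the whole table, with 17896 to 18019 genes above 0 in control tumors and 17477 to 17941 in knockout tumors. Tumor 13, where 3 of the 10 genes were at 0, had the fewest reads (32924414) and the fewest genes above 0. Without clone 4 tumor 10, the genes past the threshold rose from 1 to 5 (*Gzmb*, *Prf1*, *Nkg7*, *Il2rb* and *Eomes*), and without control tumor 1 there were 0, with 1 gene at an unadjusted p under 0.05 in limma. The direction of all 10 differences was the same in each of these fits.

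Tumor 10 was not high in lymphocyte genes alone. Mast cell and basophil genes, some of which code for proteases of another kind of granule, summed to 118.1 normalized counts in tumor 10 and to at most 64.3 in any other tumor. Neutrophil genes summed to 1959 in tumor 10 and to between 494.4 and 1720 in the others. In tumor 1 the T cell list was highest, with a sum of 1988, and *Cd3g* was at 181.0, against 12.3 in tumor 10. Tumor 1 was not high in T cell genes alone either. Its sums of macrophage genes (105100) and of plasmacytoid dendritic cell genes (126.5) were also the highest of all tumors. The same held for the sums of the lists of other granule genes, further NK receptors and receptor adaptors given below. These 3 sums were set largely by genes with high counts, such as *Lamp1*, *Fcgr3* and *Tyrobp*, with control means of 48370, 5565 and 3907. They do not show whether tumor 1 was highest in the low genes of these lists. The part of all these cells in the values of tumors 1 and 10 was not tested.

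**Figure D3:**
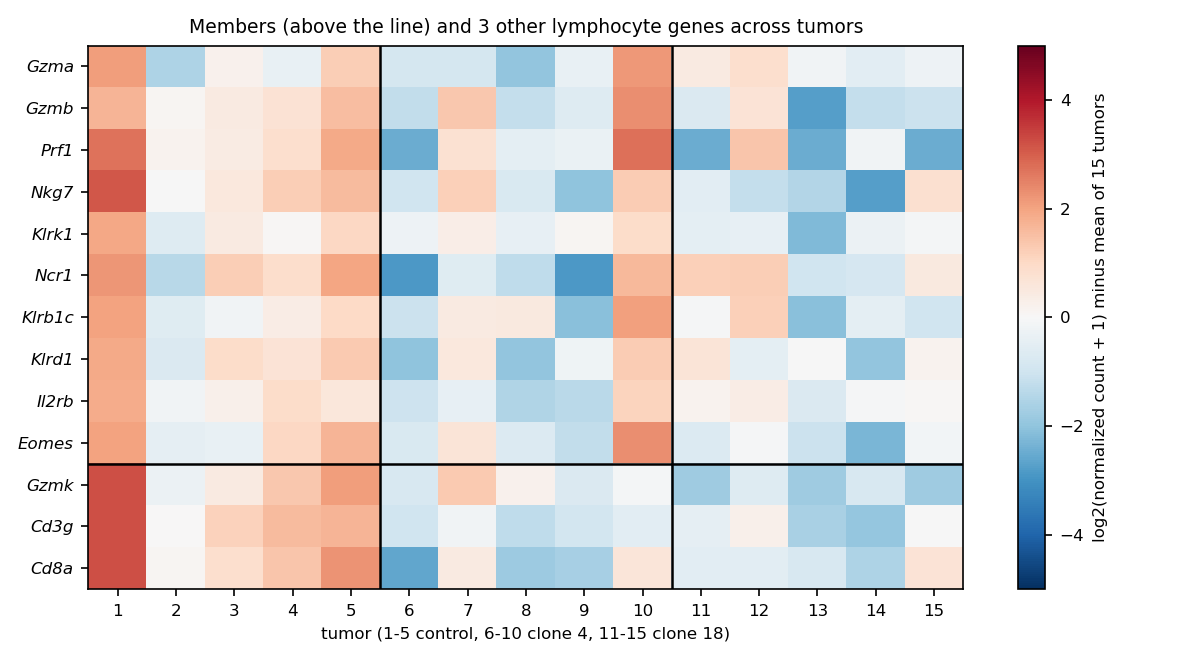
Deviation of each gene from its mean over the 15 tumors on the log2(normalized count + 1) scale, in control tumors 1 to 5, clone 4 tumors 6 to 10 and clone 18 tumors 11 to 15. Above the horizontal line are the 10 cytotoxic genes, and below it *Gzmk*, *Cd3g* and *Cd8a*. Tumors 1 and 10 are red in all 10 cytotoxic genes, while *Cd3g* was 181.0 in tumor 1 and 12.3 in tumor 10.

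The genes varied together from tumor to tumor. Deviations from the group means on the log2 scale had a median Pearson correlation of 0.73 over the 45 pairs of the 10 genes (range 0.32 to 0.87, 15 tumors). Without tumors 1 and 10 the median was 0.56 (range -0.02 to 0.85, 13 tumors). *Il2rb* had the highest median correlation with the other 9 genes, 0.80, and *Nkg7* the lowest, 0.61. Pairs within the T cell list had a median of 0.69, and pairs of a cytotoxic with a T cell gene 0.67, so that the 10 genes were not set apart from T cell genes by this measure. The points share libraries and size factors, and the correlations are given as a description.

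The other genes whose deviations were most like the mean deviation of the 10 were taken from 16488 candidates that averaged 10 or more normalized counts. High Pearson correlations over 15 tumors were those of *Tbc1d2b* (0.957), *Serpina3g* (0.956), *Skap1* (0.938), *Cyfip2* (0.930), *Bin1* (0.922), *Rnf150* (0.920), *Gm4759* (0.919), *Klk1* (0.918) and *Ccnd2* (0.909). Without tumors 1 and 10 they were between 0.823 and 0.933. *Skap1* codes for an adaptor of T cells.

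Levels were set side by side only per kilobase of annotated exon. In control tumors the highest mean normalized count per kilobase was that of *Nkg7*, 47.1 ± 45.4 (SD, n = 5), followed by *Il2rb* at 31.7, *Gzma* at 26.9, *Klrk1* at 20.2, *Klrd1* at 18.2, *Ncr1* at 11.7, *Gzmb* at 8.98, *Prf1* at 5.95, *Eomes* at 2.30 and *Klrb1c* at 2.21. No neighbours in this order differed by more than the SD of the higher of the pair. In clone 18 the order began with *Il2rb* at 17.5 and *Gzma* at 16.5, ahead of *Nkg7* at 8.84.

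Of the 3 CD3 genes of T cells, 2 fell in knockout tumors. *Cd3g* fell by 2.30 (adjusted p = 0.0013), *Cd3d* fell by 2.12 (adjusted p = 0.0102) and *Cd8a* fell by 2.33 (adjusted p = 0.00691) on the log2 scale, whereas *Cd3e* had a difference of -1.34 (adjusted p = 0.079). To set granule genes against T cells within each tumor, the sum of *Gzma*, *Gzmb*, *Prf1* and *Nkg7* was divided by the sum of *Cd3d*, *Cd3e* and *Cd3g*. The ratio was 0.730, 0.890, 0.654, 0.564 and 1.06 in control tumors 1 to 5. It was 1.06, 1.62, 1.36, 1.29 and 3.21 in clone 4 tumors, and 1.15, 1.55, 0.929, 1.13 and 1.43 in clone 18 tumors. Control tumors had the lower ratios, and 9 of the 10 knockout tumors were above each control tumor, tumor 6 only narrowly. The median was 0.730 in control tumors and 1.33 in knockout tumors, with no test, since the genes were chosen with their values known. Any gene that fell less than the CD3 sum has a higher ratio in knockout tumors, so that a higher ratio need not be particular to the granule genes. The share of all genes with such a ratio was not computed.

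The ratio depended on the granule gene. On the log2 scale, the median of knockout over control tumors was 0.86 for the sum, 1.77 for *Gzma* alone, 0.99 for *Prf1* alone, 0.56 for *Gzmb* alone and -0.02 for *Nkg7* alone. For *Prf1* and *Nkg7* the clones went opposite ways. The median *Prf1* ratio was 0.110 in control, 0.225 in clone 4 and 0 in clone 18 tumors. For *Nkg7* it was 0.352, 0.583 and 0.213. The median *Gzma* ratio was above control in both clones, at 0.203 in control, 0.531 in clone 4 and 0.716 in clone 18 tumors. For *Gzmb* it was 0.107, 0.214 and 0.112, so that clone 18 was close to control. *Klrk1* over the CD3 sum had a median of 1.44 in control and 2.88 in knockout tumors, and *Il2rb* 1.14 and 2.58. *Gzmk*, a granzyme mainly of T cells, went the other way with 0.0726 and 0.0539, as did *Cd8a* with 0.502 and 0.385. For *Gzmk* the clone 4 median, 0.0692, was close to that of control tumors, and the clone 18 median was 0. For *Cd8a* the medians were 0.364 in clone 4 and 0.406 in clone 18. The CD3 sum itself was between 11.0 and 53.5 normalized counts in knockout tumors, so that the ratios rest on few reads.

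**Figure D4:**
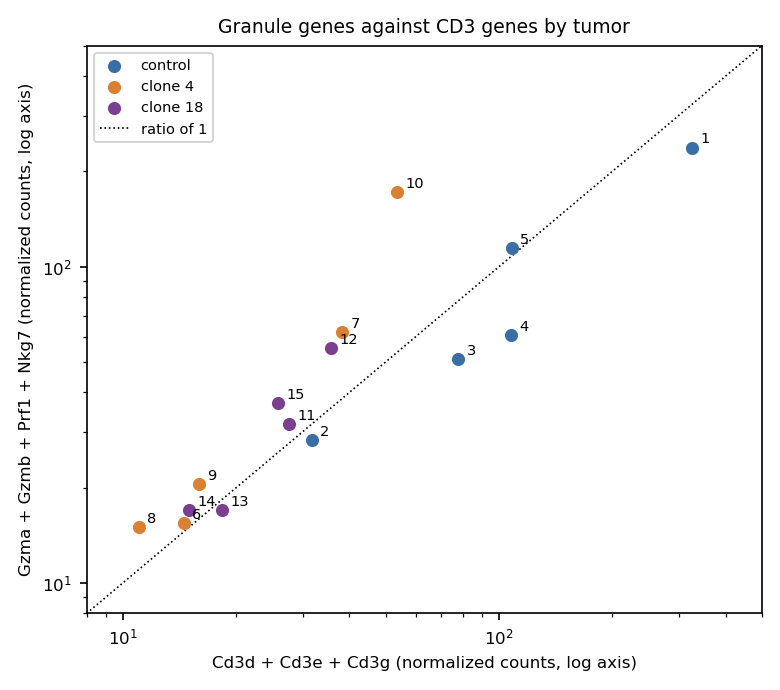
Sum of *Gzma*, *Gzmb*, *Prf1* and *Nkg7* against the sum of *Cd3d*, *Cd3e* and *Cd3g* in normalized counts, both on log axes. Each numbered point is 1 tumor and the dotted line marks a ratio of 1. Control tumors lie below the line except tumor 5 at 1.06, and knockout tumors lie above it except tumor 13 at 0.929.

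Other genes of the granule pathway were counted from a list of 15 in the table, chosen with earlier results known. None was higher in knockout tumors and 5 were lower, with a median log2 difference of -0.41. Over all 18250 genes tested, 22.1% passed in either direction and 12.9% as lower, which is also the background for the lists that follow. *Gzmk* fell by 2.05 (adjusted p = 0.0168), *Crtam*, a receptor of activated NK and CD8 T cells, fell by 1.95 (adjusted p = 0.0208), the death ligand gene *Fasl* fell by 1.57 (adjusted p = 0.0144), and *Ctsw*, a cathepsin of cytotoxic cells, fell by 1.13 (adjusted p = 0.0339). *Stxbp2*, which takes part in granule fusion and is also expressed outside lymphocytes, fell by 0.41 (adjusted p = 0.000173). Without tumors 1 and 10, 3 of the 15 genes passed. When 1 tumor was left out, the call of *Stxbp2* held in 15 of 15 fits, of *Fasl* in 14, of *Gzmk* and *Crtam* in 13 and of *Ctsw* in 10. *Rab27a*, which docks granules at the membrane and is used by many secretory cells, differed between the clones. Its normalized counts were 530.0 to 802.1 in control tumors, 187.0 to 233.9 in clone 4 and 504.2 to 741.9 in clone 18, a log2 difference of 1.60 for clone 18 over clone 4 (adjusted p = 8.1e-07).

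Further NK receptors were few in these tumors. Of 17 in the table, 9 averaged 10 or more normalized counts, the median log2 difference was -0.53, none was higher in knockout tumors and 1 was lower, *Fcgr3*, an Fc receptor gene that macrophages also express (log2 difference -0.28, adjusted p = 0.0415). Macrophage genes were lower too, 5 of 7, among them *Csf1r*, which fell by 0.60 (adjusted p = 0.00331), and the part of macrophages in *Fcgr3* was not tested. The receptor adaptors had 4 of 8 genes lower and none higher, with a median of -0.35. *Tyrobp*, which codes for DAP12, fell by 0.36 (adjusted p = 0.0356), *Fcer1g* fell by 0.34 (adjusted p = 0.0489), *Vav1* fell by 0.40 (adjusted p = 0.0332) and *Lat*, an adaptor of the T cell receptor, fell by 1.37 (adjusted p = 0.0495). *Hcst*, which codes for DAP10, the adaptor that NKG2D uses, had a difference of -0.35 (adjusted p = 0.329). None of the 4 adaptors passed with limma without trend, in either two-sample test or without tumors 1 and 10 in limma, nor did *Fcgr3*. When 1 tumor was left out, *Vav1* held in 12 of 15 fits, *Tyrobp* in 10, *Fcgr3* and *Lat* in 5 and *Fcer1g* in 4.

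Cytokine and lineage genes of NK cells had 5 of 18 lower and none higher in knockout tumors, with a median log2 difference of -0.37. *Tox*, a transcription factor of T and NK cell development, fell by 2.63 (adjusted p = 0.00917), and *Il2rg*, which codes for the common chain that pairs with the product of *Il2rb*, fell by 0.87 (adjusted p = 0.00625). *Il18rap* and *Il18r1*, the chains of the interleukin-18 receptor, fell by 0.73 (adjusted p = 0.00291) and fell by 0.66 (adjusted p = 0.0458). *Il21r* fell by 0.53 (adjusted p = 0.0495), and the calls of *Il18r1* and *Il21r* held in only 6 and 3 of the 15 fits without 1 tumor. *Tbx21*, the T-box factor T-bet that acts beside *Eomes*, had a difference of -1.51 (adjusted p = 0.0837), and *Il15* one of -0.16 (adjusted p = 0.661). *Il15ra*, which presents interleukin-15 to the product of *Il2rb*, was lower in clone 18 than in clone 4, at 280.1 to 345.9 against 458.5 to 639.4 normalized counts (log2 difference -0.79, adjusted p = 0.000137).

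Ligands of NK receptors moved in both directions. Of 12 in the table, 3 were higher and 4 lower in knockout tumors, with a median log2 difference of -0.30. *Raet1d* and *Raet1e*, which code for ligands of NKG2D, were higher in all 10 knockout tumors than in each control tumor. The share of all genes with this pattern was not computed. *Raet1d* was 264.2 to 323.8 in control and 469.4 to 769.0 in knockout tumors, which is 0.86 more on the log2 scale (standard error 0.10, limma adjusted p = 1.73e-05). *Raet1e* was 321.4 to 438.1 in control and 544.7 to 990.5 in knockout tumors, which is 0.87 more (standard error 0.13, adjusted p = 9.77e-05). Both passed in each clone and, for both clones together, in all 15 fits that left out 1 tumor.

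Other ligands of the same receptor went the opposite way. *H60b* fell by 0.71 (adjusted p = 0.00344) with all 10 knockout tumors below each control tumor, which 4.87% of all genes had. *H60c* fell by 0.99 (adjusted p = 0.0145) with 9 of 10 below each control tumor. *Ulbp1* fell by 0.25 (adjusted p = 0.0395, held in 7 of 15 fits without 1 tumor). Genes of the Raet1 family are near copies of one another, and the counting may have split or dropped shared reads, so that values of single members are uncertain. The annotated span of *Raet1e* also overlaps *H60b* and *Raet1d* on the same strand. Reads in shared stretches may have been dropped or counted for another gene. The part of this overlap, and of BALB/c reads on a reference of another strain, in the values of these ligands was not tested. *Clec2d*, a ligand gene of inhibitory Klrb1 receptors, was higher (log2 difference 0.61, adjusted p = 0.011), more so in clone 18 than in clone 4 (log2 difference 0.52, adjusted p = 0.0424), and *Clec2f*, annotated as a transcribed pseudogene, fell by 2.14 (adjusted p = 0.00409).

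**Figure D5:**
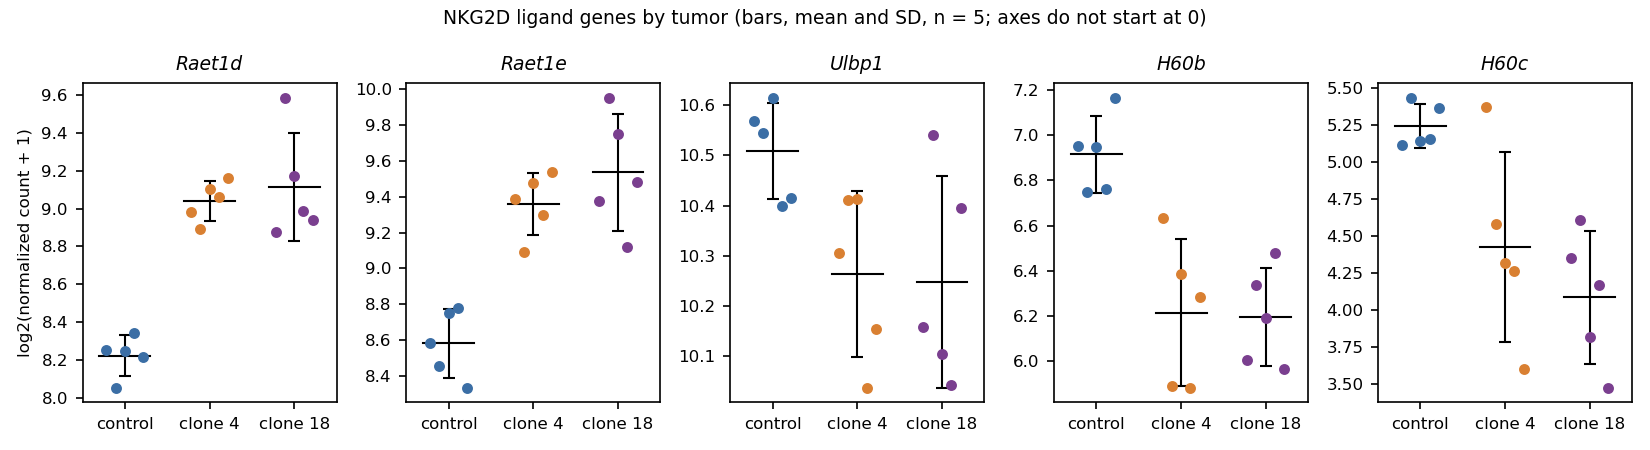
Expression of 5 ligand genes of NKG2D in each tumor as log2(normalized count + 1), on axes that do not start at 0. Points are tumors, lines and bars the mean and SD of 5 tumors. *Raet1d* and *Raet1e* are higher in all 10 knockout tumors than in each control tumor, and *H60b* is lower in all 10.

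Markers of other cells were read beside the cytotoxic genes, where 12.9% of all genes passed as lower in knockout tumors. Of 10 T cell genes, 5 were lower and none higher, with a median log2 difference of -1.65 and a summed level of 568.9 to 1988 in control tumors, 603.9 to 937.2 in clone 4 and 519.6 to 760.3 in clone 18. The largest part of this sum was *Lck*, with means of 493.4 in control, 501.5 in clone 4 and 440.9 in clone 18 tumors. *Lck* had a log2 difference of -0.06 (limma adjusted p = 0.782), so that the sum follows the CD3 genes only in part. Without tumors 1 and 10, 3 of the 10 passed. *Cd4* had a difference of -0.91 (adjusted p = 0.0567). Of 5 B cell genes, 2 were lower, *Cd79a* and *Cd79b*. *Cd79a* was between 0 and 5.2 in knockout tumors against 24.4 to 374.3 in control tumors. *Ms4a1*, *Pax5* and *Cd22* did not pass, with log2 differences of 0.115, 0.206 and -0.156, so that the list did not fall as a whole. Its summed level had a median of 1024 in control, 1036 in clone 4 and 765.7 in clone 18 tumors. The largest part of this sum was *Pax5*, with a control mean of 623.9 against 11.68 for *Ms4a1*. Of 7 mast cell and basophil genes none passed, none had a mean of 10 or more, and summed levels were 20.2 to 64.3 in control, 14.4 to 118.1 in clone 4 and 2.0 to 40.6 in clone 18 tumors. Of 5 neutrophil genes 2 were lower, *Csf3r* and *Ly6g*, while *S100a8* had a difference of -0.41 (adjusted p = 0.508). *Ly6g* had only 0 to 2 reads per tumor. Its call was lost in limma with a pseudocount of 5 (adjusted p = 0.064) and in DESeq2 (adjusted p = 0.232). The 2 genes of plasmacytoid dendritic cells did not pass. The T cell, B cell, macrophage and neutrophil genes past the threshold in knockout against control were all lower, as the means of the 10 cytotoxic genes were. In single clones some went the other way. The macrophage gene *Cd68* was higher than in control tumors in clone 18 (log2 difference 0.38, adjusted p = 0.018). *Pax5* of the B cell list was higher in clone 4 (log2 difference 0.40, adjusted p = 0.0382). The part of these cells in the differences was not tested.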

How the data were processed

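Bulk RNA sequencing of 15 tumors was analysed from 1 deposited table. Its values, given to 0.1, are a signal made by the authors: HTSeq counts per gene of reads that TopHat2 had placed on mm10, divided by DESeq size factors. Versions, annotation and strand setting were not given in the sources used here. BALB/c reads on a C57BL/6 reference can lose reads at genes that vary between strains, such as the Klr family.

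All values up to 8000 (100%) proved whole multiples of a step particular to each tumor (tolerance 0.05), so whole reads were recovered. The 30 pairs of tumors within groups were distinct beyond sampling error (chi-square over degrees of freedom of 18.6 or more). Of 18279 genes, 29 without reads were left out. Knockout and control were compared with limma 3.58.1 with trend on log2(normalized count + 1), and the 3 groups in a second fit with 1 term each. Benjamini-Hochberg adjustment ran over 18250 genes, with a threshold of 0.05. Alternatives were pseudocounts of 0.1 and 5, a minimum mean of 10, upper quartile scaling, limma without trend, edgeR 4.0.16 (4105 genes called) and DESeq2 1.42.0 on recovered reads, two-sample tests with equal and unequal variances, and each tumor left out. The study used a two-sample t-test on log2 values and does not state which form of the variance. It adjusted over its gene set, whereas all genes were used here. The scripts were tested on simulated data.

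The members and lists were chosen with earlier results of these data known. Named genes were the 10 members, *Pbrm1*, genes of other lists past the threshold in knockout or between clones, defining markers, and the 10 genes most like the members, of which 1 is not reported here. *Hcst*, *Tbx21*, *Il15* and the letters searched in promoters were chosen after values were seen. Positions are from GENCODE M21 on GRCm38. Python 3.11.15 with pandas 2.3.3 and matplotlib 3.10.9 was used beside R 4.3.3.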

Additional observations from a re-analysis of the deposited data

Results flagged for a closer look

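In groups of 5 tumors, a tumor was singled out where its gap to the nearest other tumor took more than 0.71 of the range of the group. This applied to 17 of 123 groups of tumors over 41 genes and to 7 of the 30 groups of the cytotoxic genes. Chance singles out about 1 in 20 groups where values are normally distributed and independent. The rule was used on normalized counts without logs, of genes that varied together, so that these counts cannot be set against that rate.

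Clone 4 tumor 10 stood above its group in *Gzma* (70.2 against 3.0 to 11.4 normalized counts in the other 4), *Prf1* (36.8 against 0 to 8.6), *Ncr1* (21.2 against 0 to 3.8), *Il2rb* (163.8 against 25.9 to 55.4) and *Eomes* (23.4 against 1.1 to 6.7). It also did so in *Fasl* (4.5 against 1.0 to 2.0) and *Tox* (12.3 against 0 to 2.3). Control tumor 1 stood above its group in *Nkg7* (114.9 against 12.3 to 39.1), *Lat* (74.3 against 7.9 to 26.4), *Cd3g* (181.0 against 18.5 to 62.4) and *Cd3e* (59.2 against 7.9 to 15.9). In clone 18, tumor 13 was low in *Klrk1* (17.0 against 58.2 to 75.0), tumor 11 was high in *Tox* (4.1 against 0 in the others) and *Il21r* (162.3 against 121.3 to 131.0), tumor 12 in *Il2rg* (109.5 against 50.0 to 65.2), and tumor 15 in *Cd8a* (26.9 against 5.0 to 11.2) and *Cd4* (165.7 against 77.2 to 95.2).

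The clones differed from each other by the limma test in *Rab27a* (log2 difference of clone 18 over clone 4 1.60, adjusted p = 8.1e-07), *Il15ra* (-0.79, adjusted p = 0.000137), *Clec2d* (0.52, adjusted p = 0.0424) and *Cd68* (0.52, adjusted p = 0.00998), and in none of the 10 cytotoxic genes.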

How the results depend on the processing

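The number of the 10 genes past the threshold in knockout against control tumors, 1, became 0 with limma without trend, 0 with the two-sample test with equal variances, 0 with unequal variances, 3 with DESeq2 and 0 without tumors 1 and 10, and lay between 0 and 5 when 1 tumor was left out. In clone 4 the number, 1, became 0 with pseudocounts of 0.1 and 5, with edgeR, with upper quartile scaling and with limma without trend, 2 without tumors 1 and 10, and lay between 0 and 2 when 1 tumor was left out. In clone 18 the number, 2, became 1 with upper quartile scaling, 1 with limma without trend, 3 with a pseudocount of 0.1 and 0 without tumors 1 and 10 and lay between 0 and 5 when 1 tumor was left out. Between the clones it stayed at 0 in all settings run. The cause of these changes was not tested. Leaving out control tumor 1 gave 0 calls in each comparison, and leaving out clone 4 tumor 10 gave 5, 2 and 5. No direction reversed among single genes of knockout against control, and of the 96 values of single cytotoxic genes under other settings 90 kept their side of the threshold. Of the 453 values of the other named genes, 385 did so, 66 lost the call and 2 gained it. For the clones, upper quartile scaling and limma without trend were chosen after seeing the data, as was leaving out tumors 1 and 10. *Gzmb*, *Prf1*, *Klrb1c* and *Eomes* gave no value under a minimum mean of 10. No paired analysis was possible because the labels hold nothing that pairs tumors across groups. Depth limits the low genes, which had 0 reads in some tumors, and the wide spread between 5 tumors limits the rest.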
